A study of Mus musculus with 6 samples.

Results

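The genes described here are 9 transcripts of the TGF-beta and BMP pathways: Smad6, Smad7, Id1, Id2, Id3, Skil, Bmp6, Sostdc1 and Tgfb2. They were taken by name from the authors' deposited table, where each has a row of its own, among 37757 rows of which 14748 were tested. The cells were kidney epithelial cells from mice of strain C57/Bl6J, 8 weeks old, with the genotype Bim-/- Bmf-/-, which both conditions share. Bim, encoded by Bcl2l11, and Bmf promote apoptosis through a BH3 domain. Messenger RNA was sequenced from 3 libraries of attached cells and 3 libraries of cells kept for 4 h in suspension, which the titles name for anoikis, death on loss of anchorage. No library of cells with intact Bim and Bmf was analysed here, and nothing in the labels ties a library to its own culture or animal, so the authors' p may reflect technical spread alone.

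TGF-beta and BMP ligands are secreted dimers that bind pairs of type I and type II receptor kinases. TGF-beta and activin receptors phosphorylate SMAD2 and SMAD3, BMP receptors phosphorylate SMAD1, SMAD5 and SMAD9, and SMAD4 joins either group. SnoN (gene Skil), a co-repressor, is a classical product switched on by TGF-beta, and the ID proteins are classical products of the BMP branch. The inhibitory SMADs are also switched on by these signals, and several of these products damp the signal in turn. In the kidney, BMP signalling is known for its part in tubule development and repair, and TGF-beta for its part in fibrosis.

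The deposited values are FPKM, fragments scaled to transcript length and library size, with 1 value per gene and condition and a p and q from the authors' own test. No value per library was analysed here, so no standard deviation can be given and the depth is unknown. A gene is called when the authors' q is below 0.05. In the authors' deposited table the smallest q is 0.000185, shared by 7 of the 9 genes, and it belongs to every called gene below unless another q is given. That q therefore does not rank the genes. Of the genes labelled as deleted, Bcl2l11 was at 9.53 and 51.4 FPKM and Bmf at 2.95 and 4.30 FPKM (q = 0.287) per the authors' deposited table, and a value for a whole gene does not check which exons are missing.

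All 9 genes were called, 7 lower and 2 higher in suspension, per the authors' deposited table. The background is wide, since 51.0% of tested rows were called, 26.3% lower and 24.7% higher. A change of at least 2-fold was listed for 6 of the genes that fell and for both that rose. Among tested rows, 7.12% were called and at least 2-fold lower, and 12.4% were called and at least 2-fold higher. The genes were put together with earlier results of these data known, so these counts are a description and not independent evidence of a direction. Among the 9 genes, Smad6, Smad7, Skil, Id1, Id2 and Id3 were lower in suspended cells. The secreted antagonist Sostdc1 was at 0.0965 FPKM there, and the ligands Bmp6 and Tgfb2 were higher. Intracellular inhibitors outside the 9 moved in both directions.

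**Figure D1:**
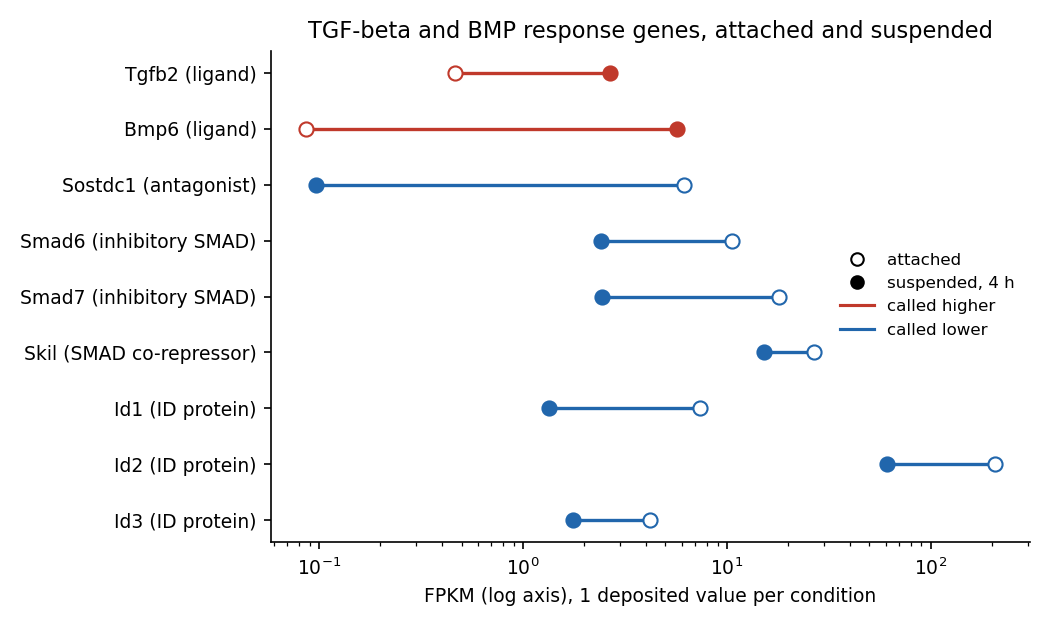
FPKM on a log axis for the 9 genes, with 1 deposited value per condition: open circles are attached cells, filled circles cells suspended for 4 h, and lines are red where the gene was called higher and blue where it was called lower. Bmp6 (0.0861 to 5.70 FPKM) and Sostdc1 (6.19 to 0.0965 FPKM) span the widest ranges, in opposite directions, and Id2 stands above the other genes in both conditions.

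Bmp6, a BMP ligand best known for setting hepcidin and iron balance from the liver, went from 0.0861 FPKM attached to 5.70 FPKM suspended. That is a 66.2-fold rise per the authors' deposited table (log2 fold change 6.05). The attached level was near the bottom of the table, below all but 3.09% of tested rows, and the suspended level lay above 38.8% of them. Only 0.349% of tested rows with FPKM above 0 in both conditions had a higher log2 fold change than Bmp6. A ratio against so low a value is sensitive to small amounts of signal: with 1 FPKM added to both conditions the log2 fold change was 2.62. The row lies on chromosome 13, positions 38345716 to 38499728 (mm10), and an antisense RNA, 4930579J19Rik, is annotated inside it.

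Tgfb2, one of the TGF-beta isoforms, went from 0.466 to 2.67 FPKM, 5.73-fold higher per the authors' deposited table (log2 fold change 2.52). Both levels are low, above 11.6% of tested rows attached and 26.7% suspended. Its row (chromosome 1, positions 186623186 to 186705992) holds a small nucleolar RNA, Gm26169, listed at 0 FPKM in both conditions, and the antisense RNA Gm29491 at its start. Whether the authors' counting used strand is not given in the sources used here, so reads of Bmp6 and Tgfb2 cannot be told apart from those of their antisense partners. The other 7 rows are overlapped by no other gene in the annotation used (GENCODE M21).

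The DNA just before the start of Tgfb2 is shown because it holds matches to short SMAD elements. In the RefSeq promoter table (GRCm38.p6), the 250 bases before the start lie at chr1:186705990-186706239, minus strand. Capitals mark matches, on either strand, to the short SMAD element GTCTG and to CAGACA, the core of the SMAD3/4 CAGA element, which overlaps a GTCTG match here.

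Tgfb2: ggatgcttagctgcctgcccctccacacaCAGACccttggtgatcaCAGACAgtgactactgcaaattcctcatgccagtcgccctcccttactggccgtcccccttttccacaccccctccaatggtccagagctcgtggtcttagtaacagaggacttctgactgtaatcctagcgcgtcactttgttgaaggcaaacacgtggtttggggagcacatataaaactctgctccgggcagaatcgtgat

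CAGACA stood in 1 of the 5 promoters of these genes that the table holds, that of Tgfb2, and in 17.1% of all 32841 promoters over the same length. GTCTG stood in 3 of the 5 (Tgfb2, Id3 and Bmp6) and in 42.2% of all promoters. The windows of Id3 and Bmp6 begin within an annotated exon of a protein-coding gene, so they are partly exonic and are not shown. Matches of letters at such background rates describe the sequence and are not shown to be bound.

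Other ligands moved in both directions. Of the 7 tested TGF-beta and activin ligands besides Tgfb2, 2 were called higher, 2 lower and 3 were not called per the authors' deposited table. That is 57.1% called, beside 51.0% of all tested rows. Inhbb, the activin B subunit, went from 0.363 to 2.77 FPKM, while Inhba, the activin A subunit, went from 4.10 to 1.03 FPKM. Gdf11, a ligand related to myostatin, fell from 4.43 to 1.03 FPKM. Tgfb1, the most abundant TGF-beta isoform in both conditions, rose 1.39-fold, from 18.5 to 25.6 FPKM (q = 0.00199) per the authors' deposited table. Tgfb1 stood at 39.7 times the Tgfb2 level in attached and 9.59 times in suspended cells. Tgfb3 was listed at 0.585 and 1.11 FPKM (q = 0.0785), and Gdf15, a stress-induced member of the family, at 866 and 840 FPKM (q = 0.762), per the authors' deposited table.

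Among 5 tested BMP ligands besides Bmp6, 3 were called higher, 1 lower and 1 was not called per the authors' deposited table. This called share of 80% compares with 51.0% of all tested rows. Bmp7, made by tubule epithelium, rose from 4.72 to 6.71 FPKM (q = 0.00143). Bmp2 and Bmp4, both below 1 FPKM in each condition, were also called higher per the authors' deposited table, from 0.162 to 0.661 FPKM and from 0.239 to 0.902 FPKM (q = 0.000831). Bmp3, an atypical BMP that opposes the others, fell from 6.80 to 2.22 FPKM. Bmp6 was last of 12 ligands with at least 1 FPKM in either condition when cells were attached and ranked 4 when they were suspended, behind Gdf15, Tgfb1 and Bmp7.

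**Figure D2:**
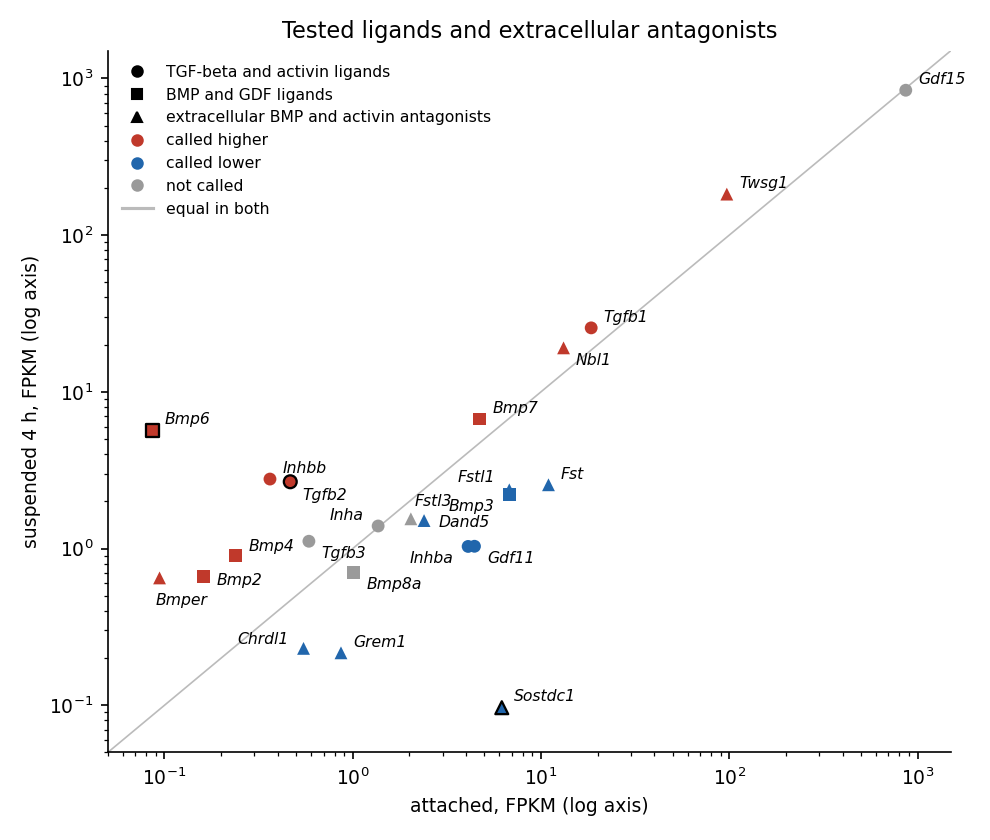
Tested ligands and extracellular antagonists, with attached FPKM on the x axis and suspended FPKM on the y axis, both log, 1 deposited value per condition; shapes give the class, colours the call, black edges mark Bmp6, Tgfb2 and Sostdc1, and the grey line marks equal levels. Bmp6 lies farthest above the line and Sostdc1 farthest below it, while Gdf15 (866 and 840 FPKM) lies close to it.

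Sostdc1, a secreted antagonist of BMPs that also modulates WNT signalling, is made by distal tubule cells in the kidney. It went from 6.19 FPKM attached to 0.0965 FPKM suspended, 64.1-fold lower per the authors' deposited table (log2 fold change -6.00, q = 0.000676). Only 2 tested rows above 0 in both conditions had a lower log2 fold change. The suspended level was higher than in 0.427% of tested rows, so the ratio rests on a value near 0, and with 1 FPKM added to both conditions the log2 fold change was -2.71. The row lies on chromosome 12, positions 36314169 to 36318452.

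Other extracellular antagonists changed in both directions. Of 9 tested besides Sostdc1, 5 were called lower, 3 higher and 1 was not called per the authors' deposited table. Over all tested rows, 26.3% were called lower and 24.7% higher. Follistatin (Fst), which binds activins and some BMPs, fell from 11.0 to 2.55 FPKM, and Fstl1 from 6.78 to 2.37 FPKM. Gremlin (Grem1) and Chrdl1 also fell, from levels below 1 FPKM: Grem1 from 0.866 to 0.216 FPKM and Chrdl1 from 0.548 to 0.231 FPKM (q = 0.00781) per the authors' deposited table. Those that rose were Twsg1, which can oppose or aid BMPs (97.0 to 182.5 FPKM), Nbl1 (13.2 to 19.1 FPKM, q = 0.000355) and Bmper (0.0941 to 0.649 FPKM) per the authors' deposited table. Because Twsg1 is abundant, the summed FPKM of the antagonist list, Sostdc1 included, rose from 140.1 to 211.1. The median log2 fold change of its tested genes was -0.96 with Sostdc1 and -0.67 without it. Over all tested rows above 0 the median was -0.04.

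Of 11 tested genes listed for binding or activating latent TGF-beta, 5 were called higher and 3 lower per the authors' deposited table. Over all tested rows, 24.7% were called higher and 26.3% lower. Thbs1, a matricellular protein that can activate latent TGF-beta, fell 16.9-fold, from 675 to 39.9 FPKM, per the authors' deposited table. Itgb8, the integrin subunit that releases TGF-beta from its latent form, rose from 0.311 to 2.06 FPKM. Ltbp1 and Nrros, which tether latent TGF-beta, rose 2.44-fold and 2.62-fold per the authors' deposited table. Ltbp2, a relative of Ltbp1, rose 2.96-fold per the authors' deposited table.

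Called receptors changed by at most 3.03-fold. Of 10 tested type I and type II receptors, 4 were called higher, 1 lower and 5 were not called per the authors' deposited table. The called share of 50% was near the 51.0% of all tested rows. Tgfbr1 rose from 6.83 to 15.7 FPKM and Tgfbr2 fell from 165 to 70.3 FPKM, so that the level of the type II over the type I TGF-beta receptor went from 24.1 to 4.48. Acvr1, Acvr1b and Acvr2b rose 1.49-fold, 1.69-fold and 3.03-fold per the authors' deposited table. The BMP receptors Bmpr1a (37.3 and 37.9 FPKM, q = 0.876) and Bmpr2 (15.1 and 15.7 FPKM, q = 0.725) were not called per the authors' deposited table.

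Called signal-carrying SMADs changed by at most 1.57-fold. Smad1 went from 10.1 to 15.6, Smad4 from 44.6 to 69.9 and Smad2 from 56.5 to 36.5 FPKM, all called per the authors' deposited table. Smad3 (73.4 and 63.1 FPKM, q = 0.114) and Smad5 (14.1 and 14.4 FPKM, q = 0.886) were not called per the authors' deposited table, and Smad9 was not tested. Smad1 to Smad5 together held 198.6 FPKM attached and 199.5 FPKM suspended.

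Both inhibitory SMADs fell. Smad6, which blocks mainly BMP receptors and SMAD1, went from 10.6 FPKM attached to 2.41 FPKM suspended, 4.39-fold lower per the authors' deposited table (log2 fold change -2.13). Its row spans positions 63953076 to 64022059 of chromosome 9. Among tested rows above 0 in both conditions, 1.21% had a lower log2 fold change. The bases around the start of Smad6 are shown because they hold the palindrome GTCTAGAC, to which SMAD3 and SMAD4 bind, in capitals. The stretch is chr9:64022045-64022074, minus strand, GRCm38.p6, from the RefSeq promoter table.

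Smad6: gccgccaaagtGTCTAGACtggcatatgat

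The palindrome spans the start, with 4 bases before it and 4 from it on, so it is not within the 250 bases before the start, where none of the 5 promoters held it and 0.167% of all did. Over the whole 300-base windows of the table, Smad6 was the only of the 5 that held it, beside 0.213% of all windows. This wider window was chosen after the match was seen, and no factor binding was measured in these samples.

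Smad7 opposes TGF-beta and BMP receptors alike, and recruits SMURF ubiquitin ligases to them. It fell from 18.0 to 2.45 FPKM, 7.32-fold lower per the authors' deposited table (log2 fold change -2.87). Of tested rows above 0 in both conditions, 0.404% had a lower log2 fold change. The row lies on chromosome 18, positions 75367529 to 75395935. Smad7 stood at 1.70 times the Smad6 level in attached cells, and the pair were at nearly equal levels in suspended cells (ratio 1.02). Their summed level fell from 28.5 to 4.86 FPKM, so that Smad1 to Smad5 together stood at 6.96 times the inhibitory SMADs in attached and 41.0 times in suspended cells. No test of this ratio was possible with 1 value per condition.

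Skil encodes SnoN, which binds SMAD complexes and recruits co-repressors. It had the smallest change of the 9 genes, from 26.9 to 15.2 FPKM, 1.77-fold lower per the authors' deposited table (log2 fold change -0.82), and 12.4% of tested rows above 0 had a lower value. The row lies on chromosome 3, positions 31095058 to 31122577. Its relative Ski went the other way, from 12.8 to 20.9 FPKM, and was called higher per the authors' deposited table. Besides Skil, 11 intracellular inhibitors were tested, of which 6 were called higher, 4 lower and 1 was not called per the authors' deposited table. That is 90.9% called, beside 51.0% of all tested rows. Pmepa1, a TGF-beta target that sequesters SMADs, fell from 40.9 to 16.7 FPKM, and Tgif2, a SMAD co-repressor, from 3.19 to 0.901 FPKM. Smurf1, the ubiquitin ligase that works with Smad7, rose from 19.2 to 41.2 FPKM, and Tob1, which restrains BMP signalling, from 58.3 to 113 FPKM. The median log2 fold change of these intracellular inhibitors without Skil was 0.26. Among positive regulators, 3 of 12 tested were called higher and 2 lower per the authors' deposited table. This called share of 41.7% compares with 51.0% of all tested rows. Usp15, a positive regulator and deubiquitinase of the receptor and SMADs, fell from 268 to 19.7 FPKM per the authors' deposited table. The rows of Usp15, Smurf1, Acvr1b, Tcf12 and Pax2 hold an annotated microRNA, and those of Acvr1, Tgif2, Bmp4 and Tgfb3 overlap another annotated gene, so their values are uncertain.

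ID proteins have a helix-loop-helix domain without a DNA-binding region and hold E proteins in inactive pairs. All 4 Id genes were called lower per the authors' deposited table. Id2 was by far the most abundant, at 207 FPKM attached and 61.1 FPKM suspended, 3.39-fold lower per the authors' deposited table (log2 fold change -1.76). The attached Id2 level was above 97.8% of tested rows and the suspended level above 90.0%. Id1 went from 7.41 to 1.34 FPKM, the steepest fall of the family at 5.53-fold per the authors' deposited table (log2 fold change -2.47). Id3 went from 4.19 to 1.75 FPKM, 2.39-fold lower per the authors' deposited table (log2 fold change -1.26, q = 0.000355). Id4, which was not among the 9, went from 1.87 to 0.938 FPKM (q = 0.00551) per the authors' deposited table.

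Summed over Id1 to Id4, the level fell from 220.5 to 65.1 FPKM, and Id2 made up 93.9% of the sum attached and 93.8% suspended. Of the E proteins that ID proteins bind, Tcf3 fell from 26.4 to 17.4 FPKM, while Tcf4 (15.4 and 14.9 FPKM, q = 0.877) and Tcf12 (44.1 and 44.2 FPKM, q = 0.984) were not called per the authors' deposited table. The Id rows lie on chromosome 2, positions 152736251 to 152737410 (Id1), chromosome 12, positions 25093801 to 25096092 (Id2), and chromosome 4, positions 136143497 to 136145755 (Id3).

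The start of the Id2 promoter window is shown because Id2 carries nearly all of the family's transcript and its window holds GGCGCC, the GC element known from BMP-responsive enhancers, in capitals. It is chr12:25096254-25096342, minus strand, GRCm38.p6, from the RefSeq promoter table, 250 to 162 bases before the start, and it lies in an intron of a longer annotated Id2 transcript.

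Id2: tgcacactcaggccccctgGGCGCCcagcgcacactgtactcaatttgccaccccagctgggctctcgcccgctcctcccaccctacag

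GGCGCC stood in 1 of the 5 promoters, that of Id2, and in 9.59% of all promoters. The joint SMAD1/4 and Schnurri element and the cyclic AMP element TGACGTCA were in none of the 5 promoters, and the E-box CANNTG, the letters bound by E proteins, was in 3 of them and in 66.2% of all. A missing match says only that these letters are not in the window.

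**Figure D3:**
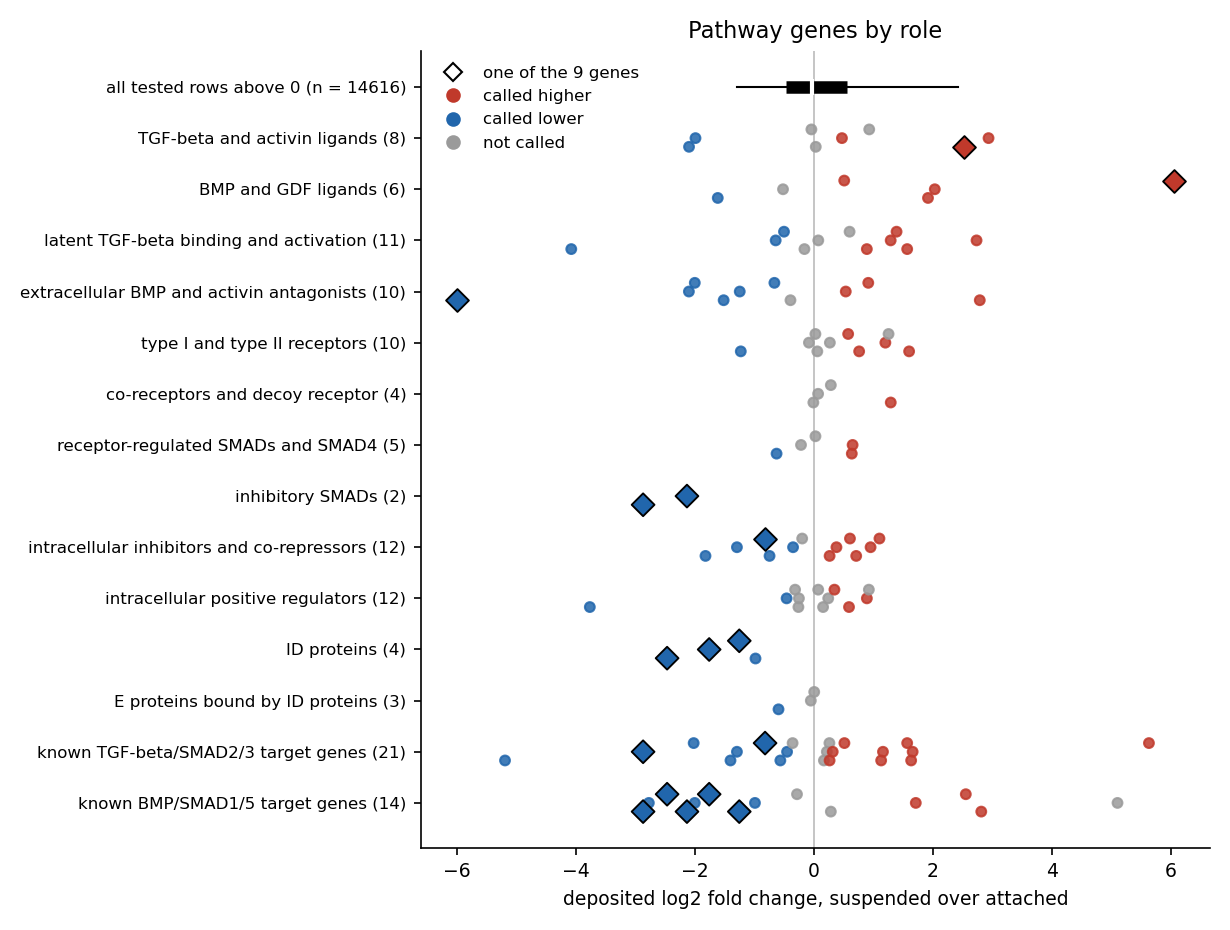
Deposited log2 fold change (suspended over attached) of each tested pathway gene above 0 in both conditions, in rows by role with the number of genes in brackets; diamonds are the 9 genes, and red, blue and grey mark genes called higher, called lower and not called. The top row gives all 14616 tested rows above 0, with a thin line from percentile 5 to 95 (-1.30 to 2.41), a thick line from percentile 25 to 75 and a white tick at the median; inhibitory SMADs and ID proteins lie wholly to the left of 0, and a gene in more than 1 list is drawn in each.

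Other known targets of these pathways moved in both directions. Of 9 tested BMP targets that are not among the 9 genes, 3 were called higher, 3 lower and 3 were not called per the authors' deposited table. Their called share was 66.7%, beside 51.0% of all tested rows. Hey1, a transcriptional repressor, fell from 7.04 to 1.03 FPKM, while Msx2, a homeobox factor, rose from 2.66 to 8.70 FPKM and Runx2, a bone transcription factor, from 0.167 to 1.17 FPKM. The Runx2 row overlaps Supt3, so its value is uncertain. Of 19 tested TGF-beta targets besides Skil and Smad7, 9 were called higher and 6 lower per the authors' deposited table. That is 78.9% called, beside the same 51.0%. The matricellular protein gene Ctgf fell, from 1150 FPKM attached to 31.5 FPKM suspended. Snai2, a repressor linked to epithelial plasticity, rose from 0.388 to 1.22 FPKM, and Fn1 was not called (103 and 120 FPKM, q = 0.0837), per the authors' deposited table.

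Over all 14 pathway lists, 145 genes besides the 9 were looked up and 143 had a row of their own, 100 of them tested. Of these, 39 were called higher, 27 lower and 34 were not called per the authors' deposited table. Over all tested rows, 24.7% were called higher and 26.3% lower. The median log2 fold change of the 100 genes was 0.16, against -0.04 over all tested rows above 0. With a 2-fold change also required, 20 were higher and 16 lower per the authors' deposited table. Over all tested rows, the shares for higher and lower were then 12.4% and 7.12%. The 9 genes themselves kept their direction under 5 other ways of scaling FPKM or adding a constant, and the plot of these settings shows the 3 genes with a level below 1 FPKM in 1 condition, Bmp6, Sostdc1 and Tgfb2, moving most.

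**Figure D4:**
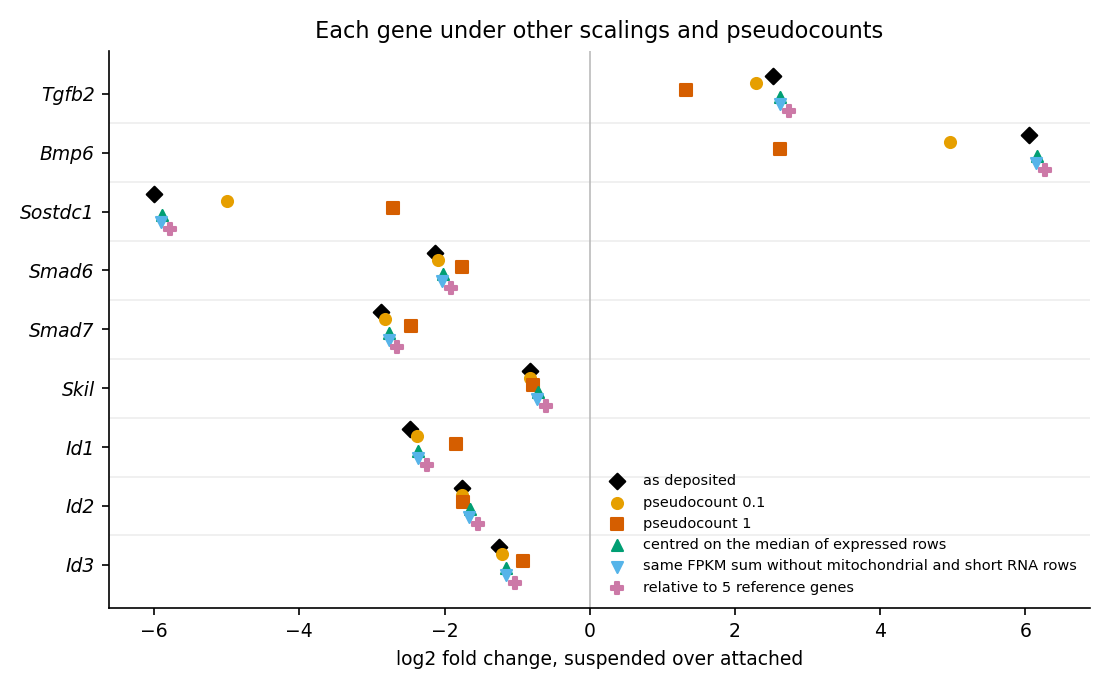
Log2 fold change of each of the 9 genes (x axis, suspended over attached) as deposited and under 5 other ways of computing it, named in the key by colour and shape. All points of a gene stay on the same side of 0; adding 1 FPKM moves Bmp6, Sostdc1 and Tgfb2 most, to 2.62, -2.71 and 1.32.

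Of the markers of the labelled kidney epithelium, Cdh16, a kidney cadherin (441 and 346 FPKM, q = 0.00268), Epcam (261 and 253 FPKM, q = 0.761) and Krt8 (606 and 752 FPKM, q = 0.0115) were abundant per the authors' deposited table. Slc34a1 and Aqp2 of mature tubule segments were listed at 0. The kidney lineage factors Pax2 (150.2 to 30.9 FPKM) and Pax8 (104 to 37.1 FPKM) and the water channel Aqp1 (79.1 to 11.8 FPKM) fell, and Aqp3, another water channel, rose from 0.0334 to 3.22 FPKM (q = 0.0135), per the authors' deposited table. The summed level of 20 tubule markers was 2807 FPKM attached and 2588 FPKM suspended, with 7 of 14 tested called higher and 6 lower per the authors' deposited table. Markers of other cell types were higher in suspension beside the changes above: the leukocyte list summed to 26.0 and 50.9 FPKM with 3 of 3 tested called higher per the authors' deposited table, with Ptprc, the pan-leukocyte marker, at 1.42 and 12.4 FPKM. Endothelial markers summed to 1.03 and 3.01 FPKM (2 of 2 tested called higher, Emcn at 0), fibroblast markers to 0.225 and 1.99 FPKM (1 of 1, Col3a1 and Lum at 0), and podocyte markers to 4.13 and 20.6 FPKM (2 of 2, Nphs1 at 0 attached) per the authors' deposited table. The erythroid genes Hba-a1 and Hbb-bs were listed at 0 in both conditions, and Hbb-b1 had no matching row. Beside these marker counts, 24.7% of all tested rows were called higher and 26.3% lower. Of 10 tested mitochondrial rows 3 were called, all higher, per the authors' deposited table. The part of these in the results was not tested, and fewer cells of a type cannot be told apart from less RNA per cell.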

How the data were processed

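Sequencing of messenger RNA from 6 libraries, 3 attached and 3 suspended, used an Illumina HiSeq, per the labels' protocols. The submitters' processing notes name TopHat, Bowtie, Cufflinks 1.0.3, Cuffdiff and mm10, without settings. Per the file headers, the authors deposited an FPKM for each condition, their log2 fold change, a test score (not used), a p-value and a q-value. The column letters A and S were taken to mean attached and suspended. With 1 value over the libraries of a condition, the depth is unknown.

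Members and gene lists were chosen with earlier results of these data known. No test of differences was run here, since no values per library were used. Named genes were all 9 members and, per list, up to 5 called genes with the largest log2 fold change among those of at least 1 FPKM, with the SMADs, receptors, ligands, antagonists and E proteins. Bmp2, Bmp4, Grem1, Chrdl1, Bmper, Ski and Fn1 fall outside this rule and were named after their values were seen, as were the cell type markers given singly; some named genes are not reported here. Promoters came from RefSeq (GRCm38.p6), which held 5 of the 9. Calculations were tested on simulated data (Python 3.11.15, pandas 2.3.3).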

Additional observations from a re-analysis of the deposited data

How the results depend on the processing

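All 45 log2 fold changes of the 9 genes under the 5 other scalings and pseudocounts kept their sign, and 42 were within 1.5 times the deposited value. The exceptions came with a pseudocount of 1 FPKM, by whose construction low values shrink: Bmp6 2.62, Sostdc1 -2.71 and Tgfb2 1.32. Requiring a 2-fold change left 16 of 27 lower and 20 of 39 higher calls among the other pathway genes, and 6 of 7 lower and 2 of 2 higher calls among the 9 genes. All other counts of calls stayed within 1.5 times under q below 0.01, a recomputed Benjamini-Hochberg adjustment, a low-value filter and centring. The wider 300-base window, chosen after seeing the data, raised the promoters holding GTCTAGAC from 0 to 1. No paired analysis was possible because the deposited columns hold 1 value per condition and carry no replicate number; for the same reason leaving out a replicate was not run. Depth is unknown, which limits what the values near 0 of Bmp6 and Sostdc1 can show.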
